A study of Gallus gallus with 20 samples.

Results

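The genes described here are 10 genes of fat cell formation and fatty acid uptake, namely PPARG, CEBPA, CEBPB, FABP4, LPL, PLIN1, PLIN2, CD36, LPIN1 and ADIPOQ, measured in cultured chicken muscle satellite cells. They were taken by name from the deposited table. All 10 were found among its 30108 genes, and all 10 had enough counts to be tested. PLIN2 and LPL lie on the Z chromosome, the sex chromosome of which male birds carry a pair.

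The libraries came from primary skeletal myoblasts, termed MuSCs, of the pectoralis muscle of Ross-308 broilers, with 9 affected and 11 non-affected samples. The paper left some non-affected samples out of its own comparison as outliers, without naming them, and its group sizes differ from these. All 20 samples were used here. Affected birds carried wooden breast, a myopathy in which the breast muscle hardens and fills with fibrous tissue, and non-affected birds showed fewer signs of it. The birds were 36 days old. The cells were preplated on uncoated plastic to remove fast-adhering fibroblasts and expanded in growth medium before RNA was taken. The muscle came from an experimental flock of males or from slaughterhouse fillets of birds whose sex is not stated, and which sample came from which was not analysed here. Neither group received a drug or carried a transgene, so the groups differ in the state of the muscle of origin and in whatever else differs between the birds. Without the suffix B that some sample names carry, the 9 affected samples have 7 numbers and the 11 non-affected samples 9, with 4 numbers in use for a pair of samples. The labels name a bird for each sample with the suffix kept, as in A76 and A76B, and do not explain the suffix. Whether such a pair came from the same bird is therefore not known.

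Adipogenesis runs through a cascade of transcription factors. CEBPB and CEBPD act early and induce PPARG and CEBPA, and these in turn switch on the genes of the mature fat cell. Lipoprotein lipase (LPL) frees fatty acids from circulating triglycerides, CD36 helps them across the membrane, FABP4 carries them in the cytosol, LPIN1 makes the diacylglycerol from which triglyceride is built, perilipins coat the droplet that stores it, and ADIPOQ encodes a hormone secreted by fat cells. Skeletal muscle also holds fibro-adipogenic progenitors and resident macrophages, and CD36, FABP4, LPL and PLIN2 are made by macrophages too.

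A feature of the libraries bears on the Z-linked genes. HINTW, a gene of the W chromosome that only females carry, had over 100 counts in 10 libraries, namely 9 non-affected libraries and the affected library A76 (876 counts), and 100 or fewer in the other 8 affected libraries and in NA61 and NA61B. The median Z-linked gene, set against the median of other genes, stood 0.19 above the mean of all libraries on the log2 scale in affected libraries and -0.17 from it in non-affected libraries (means, n = 9 and 11, two-sided exact permutation test p = 0.000292). The sex of the bird behind each library is not given in the labels, and the difference in Z dosage ran almost along the group labels. Levels are given as CPM, the counts scaled to a common library size, and compared between libraries, not between genes. Total counts spanned 15425103 to 28113814 per library and did not differ detectably between the groups (exact permutation p = 0.527).

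Across the 14524 genes tested with edgeR's quasi-likelihood test, a Benjamini-Hochberg adjusted p of 0.05 or less was reached by 484 genes (3.33%) with a higher level in affected MuSCs and by 422 (2.91%) with a lower level. Of the 10 adipogenic and lipid uptake genes, 1 was called higher, PLIN2, and none was called lower. PLIN2 also met the stricter rule of an absolute log2 fold change of at least 1, as did 1.4% of all tested genes in the higher and 1.89% in the lower direction. At an unadjusted p under 0.05, which 12.4% of all tested genes reached in the higher direction and 11.6% in the lower, 4 of the 10 genes stood out, PPARG, PLIN2, LPIN1 and ADIPOQ, all with higher means in affected MuSCs. Taken as affected over non-affected, the log2 fold change was positive for 9 genes and negative for LPL, with a median of 0.65 against -0.01 over all tested genes. The share called, 1 of 10, rests on a single gene, and its place on the Z chromosome matters for how it is read, since 120 of 517 tested Z-linked genes (23.2%) were called higher against 2.36% of genes placed on other chromosomes. The p-values here measure the spread between these samples, 4 pairs of which may share a bird.

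**Figure D1:**
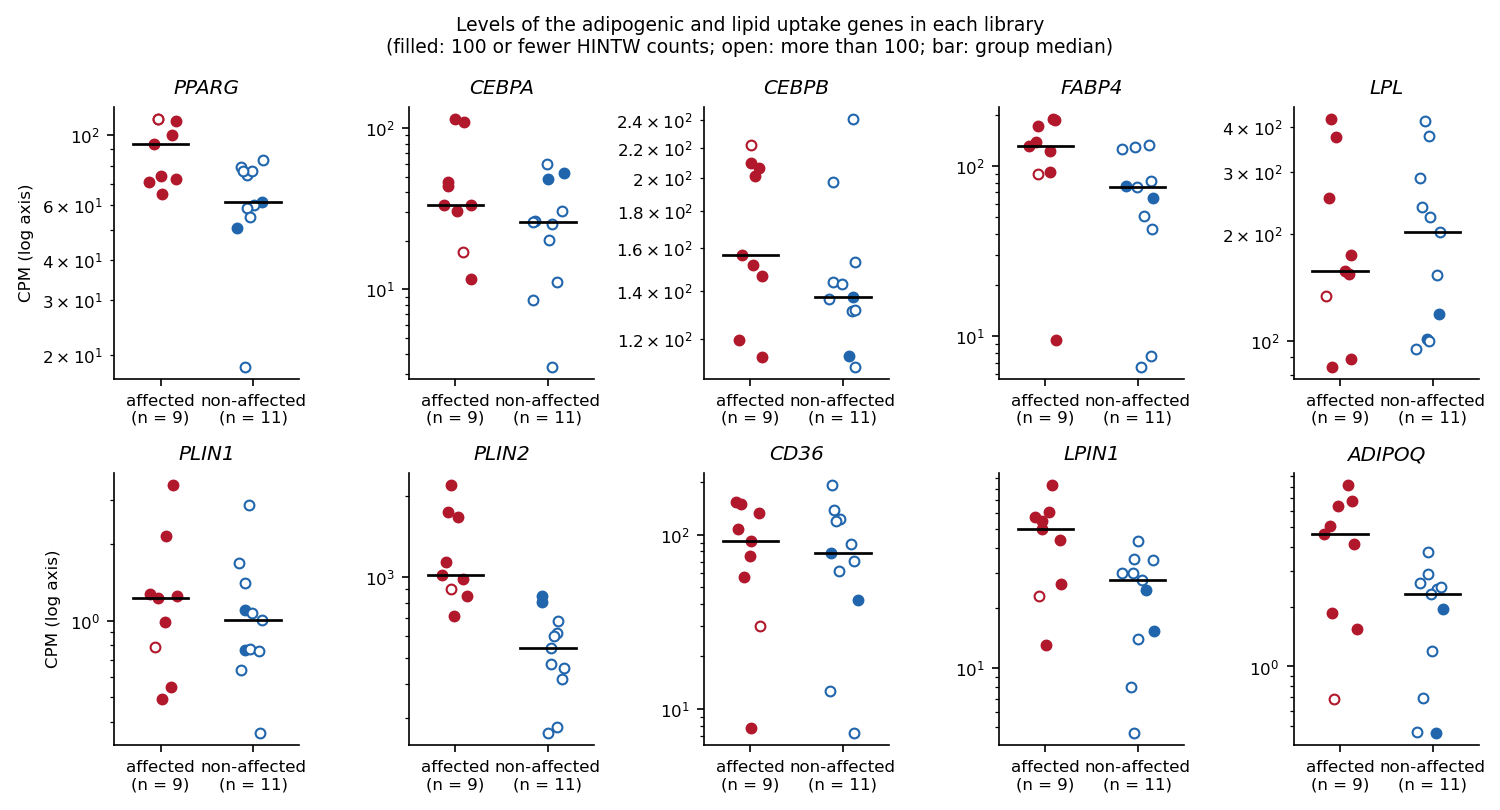
Level of each of the 10 genes in every library, as CPM (log axis), in 9 affected (left) and 11 non-affected (right) MuSC libraries. Filled points had 100 or fewer counts of the W-linked HINTW, open points had more, and the bar is the group median. PLIN2 shows the least overlap, with 7 affected libraries above the highest non-affected library at 850.7 CPM, while CD36, LPL, PLIN1 and CEBPB overlap over most of their range.

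The 3 transcription factors were expressed in every library. PPARG (ENSGALG00010027917, chromosome 12, 5019526 to 5074079 in GRCg7b), the nuclear receptor that commits cells to the fat lineage, had 64.8 CPM in the lowest affected library, 93.6 at the median and 112.2 in the highest, against 18.4, 61.1 and 83.1 CPM in non-affected libraries. All 9 affected libraries lay above the non-affected median and 5 above the highest non-affected library, NA64B. The fitted log2 fold change was 0.51 (SE 0.19, 95% interval 0.11 to 0.92), and it missed the threshold after adjustment over all genes (edgeR quasi-likelihood adjusted p = 0.111). Within the affected group PPARG varied only 1.73-fold between the lowest and the highest library, and the non-affected spread of 4.52-fold came largely from NA70 at 18.4 CPM, since the next lowest library, NA61, had 50.7 CPM.

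CEBPA (ENSGALG00010025039, chromosome 11, 9940192 to 9941462) sustains PPARG expression in maturing fat cells. It ranged over 11.6, 33.4 and 113.0 CPM (lowest, median and highest) in affected libraries, and over 3.32, 26.2 and 59.6 CPM in non-affected libraries. Only A4 and A16B, with 109.4 and 113.0 CPM, exceeded the highest non-affected library, so the groups overlapped widely. Its log2 fold change was 0.78 with an SE of 0.45 (adjusted p = 0.296 by the same edgeR test), and with HINTW as a term in the fit it became -0.20.

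CEBPB (ENSGALG00010014573, chromosome 20, 14051150 to 14052880), the early factor of the cascade, was the steadiest of the 10 genes, with a 2.19-fold range over all 20 libraries. It had 113.3, 156.9 and 222 CPM in affected libraries, against 110.1, 137.1 and 240.7 CPM in non-affected libraries, and no affected library exceeded the highest non-affected library, NA64B. The log2 fold change was 0.19 (SE 0.15, edgeR adjusted p = 0.451), and the upper end of its 95% interval, 0.51, lay below the lower end of that of PLIN2. With HINTW as a term the 2 genes were not apart, at 0.46 (SE 0.21) for CEBPB and 0.61 (SE 0.30) for PLIN2.

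Among the genes of fatty acid handling, FABP4 (ENSGALG00010002655, chromosome 2, 121036471 to 121039862), the cytosolic fatty acid carrier of fat cells and macrophages, had 9.45, 131.5 and 187.9 CPM in affected libraries and 6.63, 75.0 and 132.4 CPM in non-affected libraries. Here 8 of 9 affected libraries lay above the non-affected median and 4 above the highest non-affected library. A single library in the affected group, A73, had 9.45 CPM where the other 8 had 89.6 or more. In the non-affected group NA65 (6.63 CPM) and NA70 (7.67 CPM) also stood below the rest, which had 42.6 CPM or more. The log2 fold change was 0.80 (SE 0.47, edgeR adjusted p = 0.306). When A73, NA65 and NA70 were left out, a choice made after their values were seen, it was 0.69 with an adjusted p of 0.0695.

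CD36 (ENSGALG00010008392, chromosome 1, 11389956 to 11428714), the membrane receptor for long-chain fatty acids, showed no shift of this kind. Affected libraries had 7.74, 92.2 and 153.6 CPM and non-affected libraries 7.28, 78.7 and 191.8 CPM, with 5 affected libraries above the non-affected median and none above the highest non-affected library. Its 26.3-fold range lay within the groups rather than between them, with A73 (7.74 CPM), NA64B (7.28 CPM) and NA65 (12.6 CPM) far below the other libraries. The log2 fold change was 0.08 (edgeR adjusted p = 0.940), and the 95% interval from -0.96 to 1.12 includes both no difference and a 2-fold increase.

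LPL (ENSGALG00010013954, Z chromosome, 55215002 to 55232438) was the only gene of the 10 with a negative log2 fold change, -0.04 (SE 0.34, edgeR adjusted p = 0.954). It had 84.4, 156.8 and 421.6 CPM in affected libraries, against 94.8, 202.4 and 417.1 CPM in non-affected libraries. The extremes were alike, and 3 affected libraries lay above the non-affected median. The sign of so small a value was not stable, and it was 0.95 when only the 10 libraries with 100 or fewer HINTW counts were fitted (SE 0.58, adjusted p = 0.570).

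LPIN1 (ENSGALG00010002832, chromosome 3, 97090032 to 97161520), the phosphatidate phosphatase that supplies diacylglycerol and also acts as a coactivator in the nucleus, had 13.0, 49.9 and 83.0 CPM in affected libraries and 4.71, 27.8 and 43.5 CPM in non-affected libraries. The affected group fell into 6 libraries above the highest non-affected library, NA66, and 3 below the non-affected median (A16, A73 and A76). Its log2 fold change was 0.91 (SE 0.35, unadjusted p = 0.0171, edgeR adjusted p = 0.120), and of the alternatives run it passed the threshold only when A73, the lowest affected library, was left out (1.05, adjusted p = 0.0462).

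PLIN1 (ENSGALG00010020954, chromosome 10, 12835329 to 12839883), the droplet coat protein of mature fat cells, was close to the lower limit of what these libraries measure, with 7 to 89 counts per library. It had 0.492, 1.23 and 3.41 CPM in affected libraries and 0.363, 1.005 and 2.85 CPM in non-affected libraries. The groups overlapped over nearly all of this range, with A16B the only affected library above the highest non-affected library, and the log2 fold change was 0.27 (SE 0.36, edgeR adjusted p = 0.667).

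ADIPOQ (ENSGALG00010025618, chromosome 9, 4886000 to 4890655), which encodes the hormone adiponectin, was also low, with 8 to 133 counts per library. Affected libraries had 0.683, 4.63 and 8.11 CPM, against 0.465, 2.32 and 3.75 CPM in non-affected libraries. As with LPIN1, 6 affected libraries exceeded the highest non-affected library (NA67), while A76, A76B and A79 lay below the non-affected median. The log2 fold change of 1.16 was close to that of PLIN2 in size, but its SE was 0.42 and the edgeR adjusted p was 0.101. It passed the threshold with DESeq2 (adjusted p = 0.0490) and with A76 left out (1.31, edgeR adjusted p = 0.0453).

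PLIN2 (ENSGALG00010016168, Z chromosome, 34056394 to 34070493), the perilipin that coats lipid droplets in cells other than fat cells, muscle cells and macrophages among them, was the gene that rose. It had 713.3 CPM in the lowest affected library, 1018 at the median and 2186 in the highest, against 263.6, 545.8 and 850.7 CPM in non-affected libraries. All 9 affected libraries lay above the non-affected median and 7 lay above the highest non-affected library, with A16 (846.5 CPM) and A73 (713.3 CPM) the exceptions. The group means were 1242 ± 501 CPM in affected MuSCs and 545.3 ± 192.1 CPM in non-affected MuSCs (SD, n = 9 and 11), and the log2 fold change was 1.19 (SE 0.23, 95% interval 0.70 to 1.68, edgeR quasi-likelihood adjusted p = 0.00779). With each library left out in turn it stayed between 1.05 and 1.27, with adjusted p-values from 0.00398 to 0.0185. Over all tested genes, 2.03% had a larger log2 fold change.

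The level of PLIN2 also followed the W-linked RNA. The 8 affected libraries with 100 or fewer HINTW counts had 713.3 to 2186 CPM (median 1077), and A76, the affected library with more, had 898.5 CPM. The 2 non-affected libraries with 100 or fewer counts, NA61 and NA61B, which share a number, had 850.7 and 802.7 CPM and were the highest of their group, whereas the 9 non-affected libraries with more had 263.6 to 687.6 CPM (median 472.4). NA61 and NA61B thus lay inside the affected range, and the other non-affected libraries lay below every affected library. A76 had fewer HINTW counts (876) than each of those 9 non-affected libraries (1316 or more). On the log2 scale its median Z-linked gene, set against the median of other genes, stood 0.087 above the mean of all libraries. In those 9 libraries it stood at -0.44 to -0.20.

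The difference in PLIN2 was larger than that of most Z-linked genes. Among the 517 tested Z-linked genes the median log2 fold change was 0.39 and 79.5% were positive, and 24 of them (4.64%) had a larger log2 fold change than PLIN2. Each library's PLIN2 level was then divided by its Z level, the median Z-linked gene set against the median of other genes. The difference between the group means of log2 CPM was 0.82 after the division, against 1.18 before it (two-sided exact permutation test over 167960 splits, p = 0.000452 and 7.74e-05, n = 9 and 11). On that relative scale 7 affected libraries exceeded the highest non-affected library. The division takes PLIN2 to follow the Z level as the median Z-linked gene does, which was not tested. Samples that share a number were counted separately in these permutation tests. For LPL the same division gave -0.43 in place of -0.06 (exact permutation p = 0.261 and 0.858, n = 9 and 11).

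Fits that held the W-linked RNA constant did not call PLIN2. A term for HINTW gave it a log2 fold change of 0.61 (SE 0.30, unadjusted p = 0.0517, edgeR adjusted p = 0.856), and among the libraries with 100 or fewer HINTW counts, 8 affected against 2 non-affected that share a number, it was 0.62 (SE 0.39, edgeR adjusted p = 0.572). In the first of these fits 0 genes of the whole table were called higher and 1 lower, against 849 at an unadjusted p under 0.05, so loss of the call was not particular to PLIN2. With A76, NA61 and NA61B left out, so that group and W status coincided, the log2 fold change was 1.41 (edgeR adjusted p = 0.00136). How much of the difference in PLIN2 goes with the disease group and how much with the sex chromosomes cannot be told apart in these libraries.

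**Figure D2:**
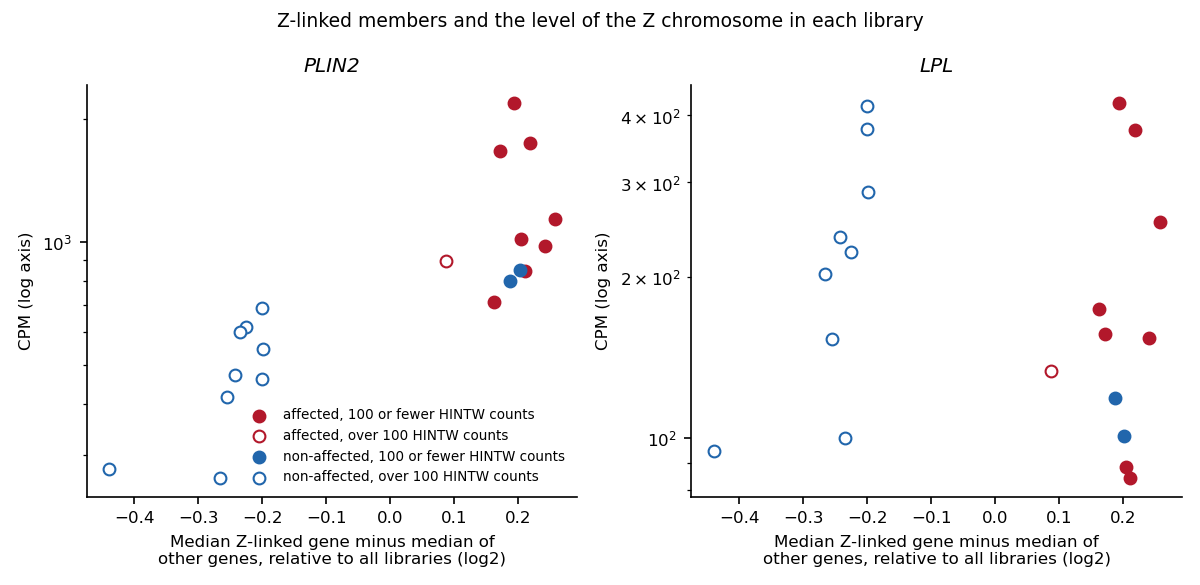
CPM (log axis) of the Z-linked genes PLIN2 (left) and LPL (right) in each of the 20 libraries against the level of the Z chromosome, taken as the median Z-linked gene minus the median of other genes on the log2 scale, relative to all libraries. The non-affected libraries NA61 and NA61B sit among the affected libraries on the x axis and at 850.7 and 802.7 CPM of PLIN2, whereas LPL shows high and low libraries at both ends of the axis.

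**Figure D3:**
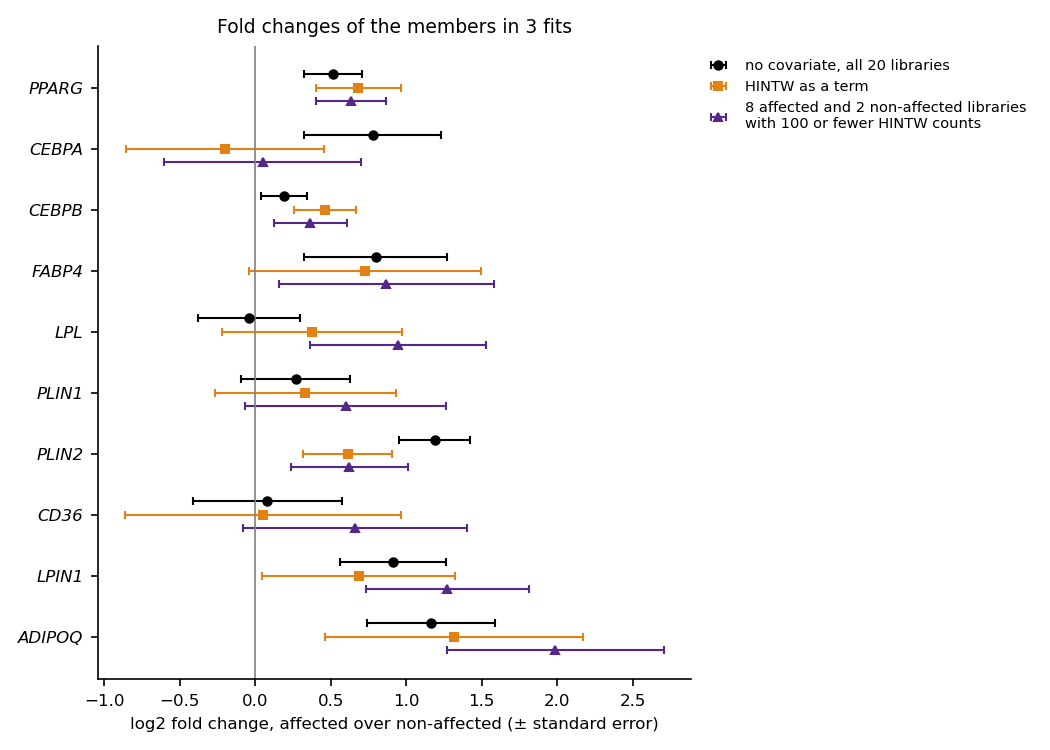
Log2 fold change (affected over non-affected, ± standard error) of each gene in 3 edgeR fits, without a covariate over all 20 libraries, with HINTW as a term, and over the 10 libraries with 100 or fewer HINTW counts. PLIN2 has 1.19, 0.61 and 0.62 in these fits, PPARG stays between 0.51 and 0.68, and CEBPA and LPL change sign between fits.

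The other 9 genes behaved in different ways under these fits. PPARG kept its size, with 0.68 with HINTW as a term and 0.64 among the libraries with 100 or fewer HINTW counts, and ADIPOQ had 1.32 and 1.99. CEBPA by contrast had -0.20 and 0.05, and its median in the 9 non-affected libraries with over 100 HINTW counts was 25.3 CPM against 52.5 and 48.4 CPM in NA61 and NA61B. None of these values passed the threshold, and the standard errors were up to 0.92, so the fits do not order the genes.

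Markers of other cells moved with the groups as well. The summed level of the macrophage marker list, of which 12 genes were tested, was 70.3, 134.8 and 275.6 CPM (lowest, median and highest) in affected libraries and 21.1, 49.0 and 110.0 CPM in non-affected libraries (exact permutation p = 0.000274), and 6 of the 12 were called higher, among them CSF1R, the receptor for macrophage colony-stimulating factor, and the lipid-sensing receptor TREM2. CD4, also on that list, was at 0 in all libraries. Among the tested genes not called, CTSS, with the highest mean of the list, had a log2 fold change of 1.29 (edgeR adjusted p = 0.0854). C1QB had 0.02 (adjusted p = 0.962). With HINTW as a term no gene of the whole table was called higher, and so none of these 6 macrophage genes. A79 and A76B had the highest sums, 275.6 and 190.4 CPM, and without them PLIN2 had a log2 fold change of 1.23 (edgeR adjusted p = 0.0259), and its levels in these libraries, 1136 and 1018 CPM, were not the highest of the group. A4, A85 and A72, the libraries with most PLIN2 (1666, 1742 and 2186 CPM), had macrophage sums of 77.2, 84.5 and 151.4 CPM. Only A79 and A76B had a higher sum than A72. In the non-affected group, NA61 and NA61B had the most PLIN2 and also the highest macrophage sums. NA70, the lowest in PLIN2 (263.6 CPM), had the lowest sum (21.1 CPM). By contrast, NA65, which followed NA61B in PLIN2 (687.6 CPM), had a sum of 40.5 CPM. The part of macrophage RNA in PLIN2 and in the other lipid genes was not tested, and in bulk RNA a change in the number of cells of a type and a change in RNA per cell cannot be told apart.

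PAX7, the satellite cell factor that marks the labelled cell type, was detected in every library (20.03 to 215.1 CPM). Its mean was 77.1 CPM in affected and 134.8 CPM in non-affected libraries (log2 fold change -0.81, edgeR adjusted p = 0.106). The other 6 tested genes of the myoblast marker list were called lower in affected MuSCs, and the list summed to 54.0, 97.6 and 207.1 CPM in affected libraries and to 67.8, 330 and 2165 CPM in non-affected libraries (exact permutation p = 0.00598). NA70, the lowest library in PPARG and PLIN2, held the sum of 2165 CPM, and the next highest library, NA68, had 674.5 CPM. With HINTW as a term 1 gene of the whole table was called lower, so at most 1 of these 6 kept its call. Of 12 adipocyte markers outside the 10 genes, 7 were present in the data, and their summed level showed no detectable difference. Their sum was 95.1, 145.7 and 193.7 CPM in affected libraries and 90.5, 136.4 and 235.6 CPM in non-affected libraries (exact permutation p = 0.863). PLIN4 made up most of it, with means of 102.3 CPM in affected and 100.7 CPM in non-affected libraries, so the sum speaks mainly for that gene. The 3 that could be tested, CIDEA, CIDEC and PLIN4, had log2 fold changes of -0.18, -0.04 and 0.02. Of the listed genes too low to test, PCK1, ADRB3, LEPR and GPD1 had 9, 73, 123 and 379 counts over all 20 libraries together. GPD1 averaged 0.276 CPM in affected and 1.48 CPM in non-affected libraries, and a single library at 10.2 CPM made up much of the second mean. The fibroblast and mesenchymal progenitor list (5458, 13544 and 20352 CPM in affected libraries, 7806, 18631 and 24522 CPM in non-affected libraries), the endothelial list (56.7, 84.1 and 126.1 CPM against 33.7, 82.8 and 177.4 CPM) and the smooth muscle and pericyte list (1918, 3984 and 7816 CPM against 1423, 3009 and 5686 CPM) gave exact permutation p-values of 0.0910, 0.786 and 0.523, with 1, 1 and 0 genes called lower and none called higher. COL1A1 made up most of the fibroblast sum (means of 7864 CPM in affected and 10485 CPM in non-affected libraries). ERG made up most of the endothelial sum (60.6 and 54.2 CPM), and ACTA2 and TAGLN most of the smooth muscle sum. These sums therefore speak mainly for those genes. TEK, the endothelial gene called lower, had means of 0.598 and 10.03 CPM and reached 92.9 CPM in its highest library.

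The wider lipid programme was not shifted in a common direction. Of 115 tested genes on 7 lists of the pathway, 58 had a positive and 57 a negative log2 fold change, 2 (1.74%) were called higher and 5 (4.35%) lower, and the median log2 fold change was 0.02. Set against the 3.33% and 2.91% of all tested genes, the first share was smaller and the second larger. These shares rest on 2 and 5 genes, and both counts changed with the processing, as given below, so they do not set the lists apart from other genes.

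Among 27 adipogenic regulators, 2 were called higher and 1 lower (median log2 fold change 0.09). CEBPD, the partner of CEBPB in early adipogenesis, rose. It had 70.2, 81.8 and 118.4 CPM in affected libraries against 36.2, 62.8 and 76.1 CPM in non-affected libraries (log2 fold change 0.57, SE 0.13, edgeR adjusted p = 0.0173). KLF4, an early inducer of CEBPB in mouse preadipocytes and in chicken a Z-linked gene, had 78.6, 137.8 and 222.7 CPM in affected libraries against 37.6, 73.3 and 142.7 CPM in non-affected libraries (0.90, SE 0.24, adjusted p = 0.0280). GATA2, which in mouse restrains PPARG and holds preadipocytes back, fell, with 0.799, 1.85 and 3.52 CPM in affected libraries against 2.09, 3.08 and 9.98 CPM in non-affected libraries (-1.08, SE 0.31, adjusted p = 0.0427). The call of KLF4 was lost with A79 and A76B left out (adjusted p = 0.0787) and with any of A4, A76B, A85 or NA68 left out. That of GATA2 was lost with any of 12 libraries left out and with samples that share a number summed (adjusted p = 0.0589). It was also lost without A79 and A76B (adjusted p = 0.116), without suffix B samples (0.116) and without a filter on low counts (0.0562). None of the 3 was called in the fit with a HINTW term or in that of the libraries with 100 or fewer HINTW counts. In these fits the log2 fold change of KLF4 was 0.55 and 0.54 (edgeR adjusted p = 0.950 and 0.656), that of CEBPD 0.50 and 0.63 (adjusted p = 0.790 and 0.331) and that of GATA2 -0.60 and -0.84 (adjusted p = 0.959 and 0.446).

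Of 21 genes of fatty acid uptake, binding and activation, 3 were called lower and none higher, and 14 had negative log2 fold changes (median -0.22). ANGPTL4, a secreted inhibitor of LPL, had 5.72, 8.95 and 13.6 CPM in affected libraries and 9.22, 23.9 and 167.6 CPM in non-affected libraries, a log2 fold change of -2.04 (SE 0.42, edgeR adjusted p = 0.00913). NA65 held the highest value, and without it the log2 fold change was -1.43 (adjusted p = 0.00512). The RNA of LPL itself showed no detectable difference, and the activity of the LPL enzyme was not measured. CAV1, the coat protein of caveolae, fell to 62.5, 154.7 and 378.2 CPM in affected libraries, against 255.1, 425.7 and 697.1 CPM in non-affected libraries (-1.09, SE 0.28, adjusted p = 0.0245). ACSBG2, an acyl-CoA synthetase, had 28.7, 42.0 and 85.5 CPM in affected libraries and 43.2, 81.8 and 117.3 CPM in non-affected libraries (-0.80, SE 0.19, adjusted p = 0.0184). The calls of CAV1 and ACSBG2 were lost without A79 and A76B (adjusted p = 0.0656 and 0.0552). None of the 3 was called in the fit with a HINTW term or in that of the libraries with 100 or fewer HINTW counts, with log2 fold changes of -1.79 and -1.56 for ANGPTL4 (edgeR adjusted p = 0.514 and 0.0689), -0.86 and -1.28 for CAV1 (0.769 and 0.313) and -0.37 and -0.63 for ACSBG2 (0.942 and 0.384).

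The other lists held 1 called gene. Among 12 genes of lipid droplets and lipolysis, 6 with positive and 6 with negative values, PNPLA3, a lipase of the droplet surface, fell slightly (50.2 ± 8.35 CPM in affected and 64.2 ± 8.76 CPM in non-affected MuSCs, SD, n = 9 and 11, log2 fold change -0.36, edgeR adjusted p = 0.0456). That call was lost with any of 13 libraries left out and in 7 of 16 other settings. Among these were both HINTW fits (adjusted p = 0.847 and 0.467), no filter on low counts (0.0712), Z and W genes left out (0.0546) and A79 and A76B left out (0.0785). Triglyceride synthesis (9 tested), fatty acid synthesis (15), fatty acid oxidation (21) and adipokines with their receptors (10) had none called in either direction, with median log2 fold changes of 0.15, 0.07, -0.04 and 0.11. The 10 genes of the adipokine list include RETREG1, which is neither an adipokine nor a receptor of one (1.23, edgeR adjusted p = 0.181). The nearest to the threshold were LPIN2, a relative of LPIN1, in triglyceride synthesis (0.75, adjusted p = 0.0563), THRSP, a factor of lipogenesis, in fatty acid synthesis (-0.49, adjusted p = 0.179), and, among adipokines and their receptors, ADIPOR1, a receptor of adiponectin (0.40, adjusted p = 0.0963).

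**Figure D4:**
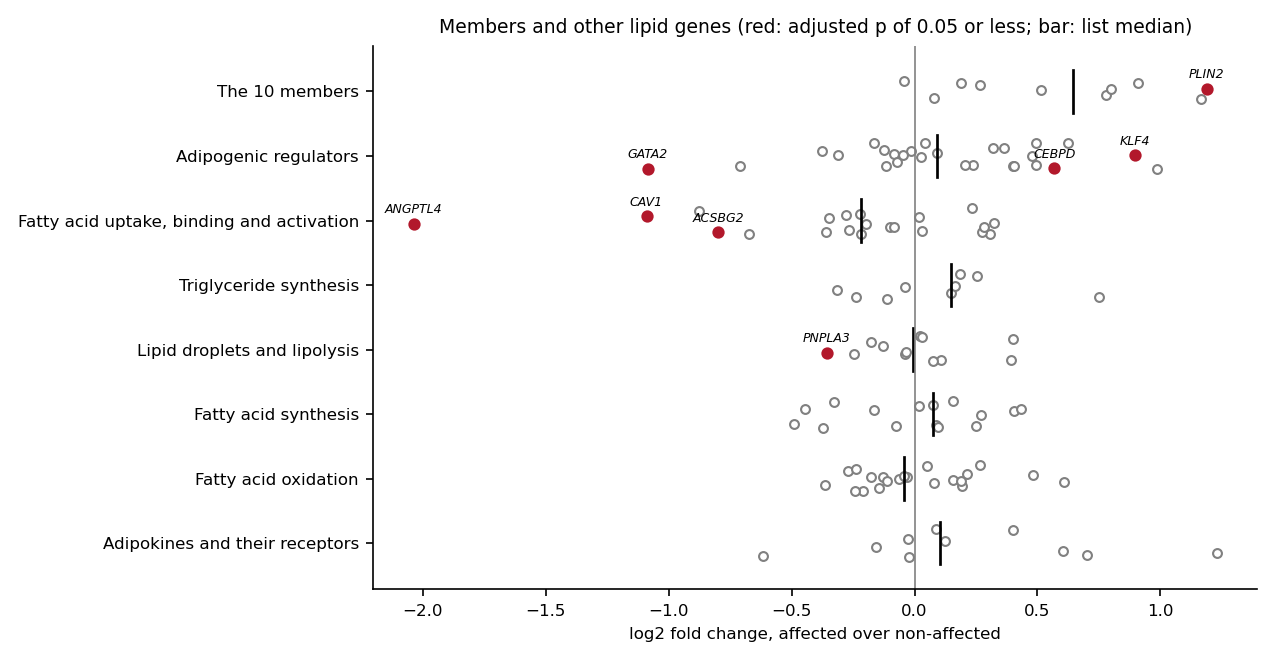
Log2 fold change (affected over non-affected) of the 10 genes and of the tested genes of 7 lists of other lipid genes. Each point is a gene, red where the edgeR adjusted p is 0.05 or less, and the bar is the median of the list, which is 0.65 for the 10 genes and between -0.22 and 0.15 for the other lists.

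The 10 genes did not rank the libraries alike. A4 was among the 4 highest libraries for 7 of the genes and A16B and A85 for 5 each, all 3 affected. A73, NA65 and NA70 were each among the 4 lowest for 6 genes and NA64B for 5, so low libraries occurred in both groups. A73 was low in FABP4, CD36, CEBPA and LPIN1 but not in PPARG (93.6 CPM) or ADIPOQ (4.63 CPM), and NA65, lowest of all in CEBPA and FABP4, had the second highest level of LPL (417.1 CPM). NA64B joined the lowest CD36 and LPIN1 to the highest CEBPB (240.7 CPM).

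**Figure D5:**
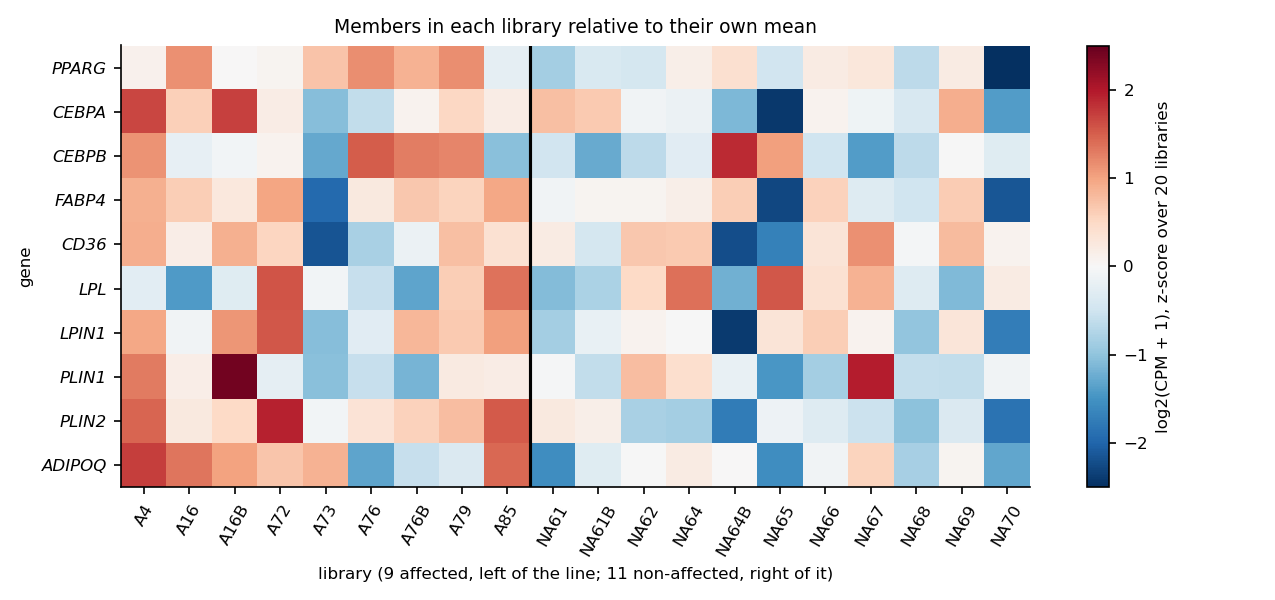
Level of each gene in each library as a z-score of log2(CPM + 1) over the 20 libraries, with the 9 affected libraries left of the line and the 11 non-affected libraries right of it. A4 is high in most genes, whereas A73, NA65 and NA70 are low in CEBPA and FABP4 without being low in every gene.

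Samples that share a number could differ widely. Between the samples numbered NA64, CD36 was 16.4-fold apart (7.28 CPM in NA64B and 119.8 CPM in NA64), LPIN1 5.90-fold (4.71 and 27.8 CPM) and LPL 3.98-fold (94.8 and 377.8 CPM). Over the 10 genes the median fold between samples that share a number was 1.69 in A16, 1.58 in A76, 1.20 in NA61 and 1.67 in NA64, against a largest fold of 2.78, 2.25, 4.17 and 16.4. A76 had 876 counts of HINTW and A76B had 0, so that pair did not share W status. No pair agreed within sampling noise. Each sample was counted once, and with samples that share a number summed PLIN2 had a log2 fold change of 1.33 (edgeR adjusted p = 0.0103).

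Relations between the genes were computed over 16 numbers, with samples that share a number averaged, group means subtracted and a permutation test within groups, for all 45 pairs of genes. PLIN2 and LPIN1 were the only pair that passed Benjamini-Hochberg adjustment by both measures, with Pearson r = 0.83 (permutation p = 8e-05, adjusted p = 0.0036) and Spearman rho = 0.79 (permutation p = 0.00047, adjusted p = 0.0211). The relation held within the 7 affected (r = 0.90) and the 9 non-affected numbers (r = 0.76), and without NA70 and A72, the samples farthest from the median of PLIN2, r was 0.74. The droplet coat gene and the phosphatidate phosphatase thus varied together in both groups.

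Of the other pairs, CEBPA with FABP4 (r = 0.79, adjusted p = 0.0127), CEBPA with CD36 (r = 0.77, adjusted p = 0.0127) and PLIN1 with CD36 (r = 0.69, adjusted p = 0.0434) passed by Pearson's permutation test alone. Their Spearman rho were 0.53, 0.68 and 0.66, with permutation adjusted p-values of 0.302, 0.108 and 0.108. Without NA65 and A73 the values of r for CEBPA fell to 0.57 with FABP4 and 0.49 with CD36, so these relations rested in part on the libraries low in both genes. FABP4 with CD36 had r = 0.70 (permutation adjusted p = 0.105), which was 0.12 without A73 and NA65. In all, 34 of the 45 pairs had a positive r.

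The genes whose pattern over the 20 libraries was most like each of the 10, by Pearson's r of log2(CPM + 1) after subtraction of group means, are given as a description. LPIN1 had the closest companions, ASAP1 (r = 0.95), GBE1 (0.94) and PGM2L1 (0.93), followed by PPARG with the syndecan SDC2 (0.90), FEZ1 (0.86) and RHOBTB2 (0.86). The genes most like PLIN2 were CERT1 (0.84), IL6ST (0.83) and PIK3C3 (0.83). IL6ST and PIK3C3 also lie on the Z chromosome, and CERT1 was not placed on any chromosome here. For CD36 they were RNF34 (0.87), UBE2E3 (0.85) and ULK2 (0.84), for ADIPOQ ING3 (0.86), COCH (0.85) and SELENBP1 (0.82), and for LPL GNB5 (0.82), SERPING1 (0.79) and VPS37A (0.79). For CEBPB they were EAF2 (0.82), PGAM1 (0.81) and NICN1 (0.80), for PLIN1 ADAT1 (0.82), WBP1L (0.80) and MIF4GD (0.79), for FABP4 PTP4A1 (0.81), GCG (0.79) and PPEF1 (0.79), and for CEBPA PLEKHG1 (0.78), PTGER4 (0.78) and CNKSR2 (0.77). No gene of the 10 appeared among the nearest genes of another.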

How the data were processed

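Messenger RNA of 20 MuSC samples was sequenced. Per the labels and the study's methods, the authors aligned reads to GRCg7b with STAR 2.7.9a, estimated reads per gene with Salmon 1.10.1, and deposited estimated counts that are neither normalized nor filtered. Of these values, 71.2% were whole numbers, and they were rounded. Relative counting error is largest for PLIN1 and ADIPOQ.

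Groups were taken from the labels. filterByExpr kept 14524 genes, and TMM-normalized counts were compared in edgeR 4.0.16 (R 4.3.3) by the quasi-likelihood test without covariates, with Benjamini-Hochberg adjustment over all tested genes. Standard errors are the absolute log2 fold change divided by the square root of F, an approximation. CPM used TMM factors. Positions and chromosomes came from RefSeq genes of GRCg7b, matched by symbol (10866 tested genes). Single values were compared by two-sided exact permutation over 167960 splits, and correlations by 100000 permutations within groups. The test was checked on counts simulated with a common dispersion, without pairs of samples or sex chromosome differences. That check therefore gives no error rate for libraries that have these features.

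Alternatives were DESeq2 1.42.0, limma-voom (limma 3.58.1), other factors, filters and robust estimation, Z and W genes left out, samples that share a number summed, suffix B samples left out, HINTW as a term or a limit of 100 counts, and libraries left out. The 10 genes and all lists were chosen with earlier results of these data known. Of each list, up to 4 called genes per direction are named, or at most the 2 with the smallest p, and the 3 nearest genes of each of the 10. The macrophage, myoblast, adipocyte, endothelial, fibroblast and smooth muscle lists serve only as values beside the results.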

Additional observations from a re-analysis of the deposited data

How the results depend on the processing

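PLIN2 kept its direction in all 16 other settings and all 20 fits without a library, and kept its call in all of these but the fit with HINTW as a term (0.61) and that with 100 or fewer HINTW counts (0.62). Signs changed for CEBPA with HINTW as a term (-0.20), for CD36 with limma-voom (-0.035) and without suffix B samples (-0.18), for PLIN1 without suffix B samples (-2.71402e-05), and for LPL with samples that share a number summed (0.072), HINTW as a term (0.38), 100 or fewer HINTW counts (0.95), A79 and A76B left out (0.011) and A73, NA65 and NA70 left out (0.14), the last chosen after the data were seen. With each sample left out, LPL ran from -0.24 to 0.11, PLIN1 from -0.049 to 0.50 and CD36 from -0.054 to 0.27.

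Of the 10 genes, 2 were called higher with DESeq2 and 0 with HINTW as a term or 100 or fewer HINTW counts (2 and 3 genes at an unadjusted p under 0.05, in either direction), and 1 to 2 with each sample left out. Pathway genes called higher, 2 in the report, were 6 with DESeq2, 11 with limma-voom, 1 with Z and W genes left out, 0 in both HINTW fits, 5 without A76, NA61 and NA61B, 1 without A79 and A76B, 5 without A73, NA65 and NA70, and 1 to 7 with each sample left out. Those called lower, 5 in the report, were 8 with DESeq2, 9 with limma-voom, 10 with library totals, 3 without a filter, 0 in both HINTW fits, 1 without A79 and A76B, and 3 to 7 with each sample left out. Over all genes, 484 higher became 811 with DESeq2, 1100 with limma-voom, 306 without suffix B samples, 0 with HINTW as a term, 9 with 100 or fewer HINTW counts and 180 without A79 and A76B, and 422 lower became 722 with DESeq2, 1139 with limma-voom, 636 with library totals, 1 with HINTW as a term, 27 with 100 or fewer HINTW counts and 169 without A79 and A76B. With each sample left out, 268 (A4) to 867 (A73) genes were higher and 243 (A4) to 926 (A73) lower. Causes of these changes were not tested. Depth limits PLIN1 most, with 7 to 89 counts per library. No paired analysis was possible because the groups share no replicate numbers.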
